A study of Homo sapiens with 12 samples.

Results

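The 40 genes described here encode the mitotic kinases, the kinetochore, the spindle checkpoint and the spindle, and they were taken by symbol from a table of 60649 genes in which all 40 were found. All 40 also passed the filter on low counts, which left 21114 genes to test. Bulk RNA sequencing had been done on SK-UT-1B, an established line from a primary uterine leiomyosarcoma, and SK-LMS-1, an established line from a vulvar metastasis of uterine leiomyosarcoma, both wild type by the labels and grown in EMEM with serum. For SK-UT-1B there were 2 libraries of cells given the vehicle DMSO and 2 of cells given gemcitabine and docetaxel together with MK-0752, called the combination here. For SK-LMS-1 the vehicle gave 4 libraries, the combination 2 and MK-0752 by itself 2. Drugs were given for 72 h at the IC30, the concentration that lowers viability by 30%, and DMSO was given in an equal volume. The paper describes serum starvation for 4 h before treatment for the qPCR by which the sequenced treatments were chosen. It does not state separately whether the sequenced cells were starved. MK-0752 is an inhibitor of gamma secretase, the protease that releases the active part of the Notch receptors. Gemcitabine, a nucleoside drug, interferes with the synthesis of DNA, and the taxane docetaxel keeps microtubules from disassembling. The concentration of MK-0752 was lower in the combination than in the treatment with MK-0752 alone, so the doses of these treatments were not matched. The first number in the names of the SK-LMS-1 libraries separated the DMSO libraries into set 2, compared here with MK-0752 (also 2), and set 4, compared with the combination (also 4).

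Cells enter mitosis when CDK1 with its cyclins and the Aurora and Polo kinases become active, and these genes are transcribed mainly in G2 and mitosis, so that their RNA is abundant in dividing cells and scarce in resting ones. Kinetochores then tie chromosomes to spindle microtubules, and the spindle checkpoint holds back the anaphase-promoting complex until every chromosome is attached. That complex then marks securin and cyclin B for destruction, separase opens cohesin, and the midzone and contractile ring divide the cell. Docetaxel acts on this process directly, since its target is the microtubule. In bulk RNA, fewer cells in G2 and mitosis and less RNA of these genes per cell cannot be told apart.

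Promoters of genes of this class often carry the cell cycle genes homology region (CHR), read here as the letters TTTGAA, and the CCAAT box bound by NF-Y, and the promoters of the 40 genes were searched for both. RefSeq promoters on GRCh38.p14, from 250 bases before to 50 bases after the start, were matched to 33 of the 40 genes, which had 40 promoters between them. BUB3, UBE2C, TTK, TPX2, FOXM1, AURKA and BIRC5 were not matched. TTTGAA was present on either strand in 25 of the 40 promoters (62.5%), against 15.2% of all 35116 promoters of that length. Within 50 bases before the start it was present in 13 (32.5%), against 2.28% of all. CCAAT was present on either strand in 31 (77.5%), against 34.6% of all, and the variant TTCGAA in 3 (7.5%), against 1.45%. The 2 motifs can overlap, as in the second TTTGAA of MKI67. A match is a description of the letters and not a site of binding. The lines below show bases before the start of 6 genes, 5′ to 3′ on the strand of the gene, with TTTGAA or its reverse complement in capitals, as is CCAAT or its reverse complement. MKI67, KIF11, CCNA2 and CCNB1 are shown because each passed an adjusted test after a treatment, and ESPL1 and CDC20, which passed none, because they hold both motifs.
MKI67: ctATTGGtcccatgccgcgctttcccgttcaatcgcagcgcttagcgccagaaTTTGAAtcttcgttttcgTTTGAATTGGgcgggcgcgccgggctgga
KIF11: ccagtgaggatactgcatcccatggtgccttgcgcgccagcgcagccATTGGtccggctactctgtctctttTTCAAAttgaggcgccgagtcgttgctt
ESPL1: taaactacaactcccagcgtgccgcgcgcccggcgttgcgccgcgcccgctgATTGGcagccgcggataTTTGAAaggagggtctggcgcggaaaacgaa
CDC20: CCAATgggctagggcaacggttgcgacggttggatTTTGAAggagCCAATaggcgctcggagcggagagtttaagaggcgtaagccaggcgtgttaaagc
CCNA2: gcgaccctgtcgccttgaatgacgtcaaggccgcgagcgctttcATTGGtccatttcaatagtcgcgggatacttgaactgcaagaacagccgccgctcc
CCNB1: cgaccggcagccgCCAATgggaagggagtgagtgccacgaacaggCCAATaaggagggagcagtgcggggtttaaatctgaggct

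These stretches were chr10:128126424-128126523 on the minus strand for MKI67, chr10:92593030-92593129 on the plus strand for KIF11, chr12:53268199-53268298 on the plus strand for ESPL1, chr1:43358881-43358980 on the plus strand for CDC20, chr4:121823884-121823983 on the minus strand for CCNA2 and chr5:69167050-69167134 on the plus strand for CCNB1, all GRCh38.p14 and all outside the exons of GENCODE v44. MKI67 had TTTGAA with its first base 47 and 29 bases before the start, and CDC20 had it 65 bases before. ESPL1 had TTTGAA 31 bases before the start and a CCAAT box 48 bases before, and KIF11 had them 28 and 53 bases before. The stretches of CCNA2 and CCNB1 held CCAAT boxes and no TTTGAA, which says only that those letters are not in these windows. The stretch of KIF11 lies in an intron of a longer transcript of KIF11 itself, and the other 5 lie just before the first exon of their gene.

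**Figure D1:**
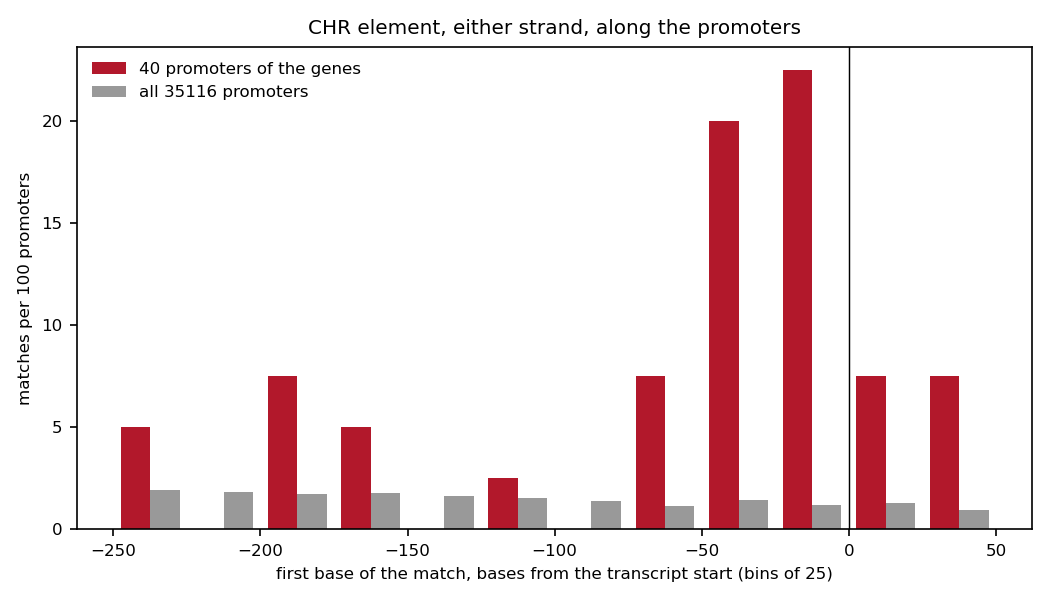
Matches to TTTGAA on either strand per 100 promoters (y axis) by the distance of their first base from the transcript start in bases, in bins of 25 (x axis), for the 40 promoters of the mitotic genes (red) and for all RefSeq promoters (grey). The red bars are highest in the bins just before the start, at 20.0 and 22.5 matches per 100 promoters, where the grey bars are at 1.45 and 1.17.

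The libraries held 25250057 to 40709885 counts, and levels are given as CPM, counts scaled to a common normalised library size per library. The labels do not say that libraries of one group came from separate cultures, so p-values measure the spread between these libraries, which may be technical. Smooth muscle markers, 10 in number, summed to 109 to 124 CPM after DMSO and 85.0 to 109 CPM after the combination in SK-UT-1B, and to 565 to 626 CPM after DMSO, 543 to 614 CPM after MK-0752 and 549 to 583 CPM after the combination in SK-LMS-1. MYH11, the smooth muscle myosin, was at or near 0 in both lines, and DES, desmin, was at 0 in SK-LMS-1. After DMSO the sum of SK-UT-1B was mostly SMTN and CALD1, at means of 58.9 and 45.7 CPM. DES was at 7.55 and ACTA2 at 3.34 CPM there. TAGLN, CNN1 and LMOD1 were at only 0.411, 0.373 and 0.252 CPM in these libraries, and ACTG2 and MYOCD at 0. Epithelial markers, 8 in number, summed in SK-LMS-1 to 226 to 277 CPM after DMSO, 178 to 189 CPM after MK-0752 and 246 to 256 CPM after the combination, mostly KRT8 and KRT18, and to at most 1.14 CPM in SK-UT-1B. Leukocyte and endothelial markers, 10 in all, summed to at most 5.22 and 9.40 CPM in any library. The sums of smooth muscle markers after the combination in SK-UT-1B and of epithelial markers after MK-0752 were thus below those of the controls, and their part in the results was not tested. PRC1 had 0 to 49 counts and held all 4 of the 480 counts of the 40 genes that were 0, while every other gene had at least 66 counts in every library. PRC1 is therefore uncertain, and it lies over an unnamed gene on its own strand. CENPA overlaps SLC35F6 on the same strand, and 10 further genes (CCNA2, CDC25C, FOXM1, NUF2, SPC24, SPC25, KIF20A, KIF23, ANLN and SGO1) overlap a gene with a mean of at least 10 counts on the other strand. The library kit keeps strand, but the strand setting of the counts was not given in the sources used here, so shared reads cannot be told apart for these 12 genes.

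Levels of different genes were compared per kilobase of exon (CPM per kb, mean ± SD, with n = 2 for SK-UT-1B and n = 4 for SK-LMS-1 after DMSO). In SK-UT-1B the highest was TOP2A at 139 ± 23.1 CPM per kb, followed by TPX2 at 104 ± 8.67, and the libraries of these genes did not overlap. UBE2C at 82.4 ± 15.8, CCNA2 at 81.4 ± 6.67 and MKI67 at 78.4 ± 0.218 CPM per kb came next and overlapped each other. In SK-LMS-1 the order began with ANLN at 65.8 ± 10.5, TPX2 at 64.2 ± 13.2 and UBE2C at 58.0 ± 3.801 CPM per kb, whose libraries overlapped. CDC20 at 41.3 ± 7.54 and CCNB1 at 39.8 ± 1.36 CPM per kb followed, and overlapped each other but not UBE2C. The highest CDC20 library, at 47.0 CPM per kb, lay above the lowest TPX2 library, at 46.2 CPM per kb. CDC25C was next to last in both lines, at 4.66 ± 1.56 and 1.25 ± 0.560 CPM per kb, above only PRC1.

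To ask what the combination did to mitotic genes in SK-UT-1B, the treated libraries were compared with DMSO. All 40 genes were lower on average, with a median log2FC of -0.79 against 0 over all genes tested, where 42.5% of genes were below 0. In 38 of the 40 both treated libraries lay below both DMSO libraries (15.4% of all genes), and 33 were lower at an unadjusted p under 0.05 (5.08% of all genes). By the quasi-likelihood test of edgeR, with Benjamini-Hochberg adjustment over the genes tested, 2 of the 40 fell at an adjusted p under 0.05 (0.251% of all genes). These were CCNA2, cyclin A2, with a log2FC of -1.17 ± 0.25 (SE; adjusted p = 0.0365), and KIF11, the spindle pole kinesin Eg5, with -0.78 ± 0.18 (adjusted p = 0.0454). CCNA2 alone was also called differentially expressed, that is, past an absolute log2FC of 1 as well (0.166% of all genes). With a mean of at least 50 counts the adjusted p of CCNA2 was 0.0675 and that of KIF11 0.0544, with the libraries of the comparison alone both were at 0.586, and with library totals KIF11 was at 0.0587, so neither gene passed in every setting. The 2 treated libraries differed from each other. The 40 genes summed to 6285 and 6724 CPM after DMSO and to 3434 CPM in combination library 3-1 and 4683 CPM in library 3-3. Over the 39 genes without PRC1, the median gene was at 46.9% of its DMSO mean in 3-1 and at 70.4% in 3-3, and 33 of the 39 were lower in 3-1. With the same 21114 genes kept, as in each fit below that leaves out a library, the median log2FC without 3-1 was -0.53, with 0 called, 0 at an adjusted p under 0.05 and 22 at an unadjusted p under 0.05, where 0.332%, 0.422% and 4.14% of all genes were. Without 3-3 it was -1.09, with 20 called, 27 at an adjusted and 31 at an unadjusted p under 0.05, and calls over all genes were also more frequent, at 1.75%, 3.41% and 7.98%. Without DMSO library 4-1, CENPE alone was called and passed the adjusted p (0.336% and 0.374% of all genes), and without 4-2 none did (0.346% and 0.379%). In these fits, whether CCNA2 and KIF11 passed the adjusted test of edgeR varied with the library left out and with the filter on low counts. With the same genes kept, the log2FC was -1.73 to -0.80 for CCNA2 and -0.91 to -0.70 for KIF11. The first library number was 4 for DMSO and 3 for the combination in SK-UT-1B, so whatever that number marks cannot be told apart from the treatment.

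MK-0752 alone was compared with DMSO set 2 in SK-LMS-1. The median log2FC of the 40 genes was -0.66 against 0 over all genes, and 39 were below 0 (45.8% of all genes), the exception being the uncertain PRC1. The groups did not overlap for 32 genes (17.5% of all genes), and 27 were lower at an unadjusted p under 0.05 (3.94%). Of these, 3 fell at an adjusted p under 0.05 (0.279% of all genes), which were MKI67, the proliferation marker Ki-67 (-0.91 ± 0.14, adjusted p = 0.00488), FOXM1, the activator of G2 genes (-0.83 ± 0.17, adjusted p = 0.0283), and CCNB1, cyclin B1 (-1.09 ± 0.22, adjusted p = 0.0286). CCNB1 was the one gene called differentially expressed (0.194% of all genes), a call that ended with a mean of at least 50 counts (adjusted p = 0.0771). The treated libraries were close to each other, with sums of 2006.5 and 1875 CPM against 3168 and 3199 CPM after DMSO, and with the median gene at 63.5% and 60.1% of its DMSO mean. Whichever of the 4 libraries was left out, with the same genes kept, none of the 40 was called or passed the adjusted p with edgeR, while 19 to 21 were lower at an unadjusted p under 0.05. Over all genes 0.0474% to 0.114% were called lower, 0.0474% to 0.118% passed the adjusted p and 2.38% to 3.17% were lower at an unadjusted p under 0.05. The adjusted p was then 0.0509 to 0.113 for MKI67, 0.185 to 0.347 for FOXM1 and 0.137 to 0.420 for CCNB1. With the filter on low counts applied anew to the remaining libraries, which lets in more genes, MKI67 passed without any one of the 4 (adjusted p 0.00282 to 0.0103), CCNB1 passed in 3 of the 4 fits (0.00337 to 0.0794, the highest without MK-0752 library 2-2), and FOXM1 passed only without DMSO library 2-1 (0.0492 to 0.177).

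The combination in SK-LMS-1 was compared with DMSO set 4. The median log2FC of the 40 genes was -0.33 against 0.03 over all genes, and 36 were below 0 (39.4% of all genes). Without DMSO library 4-2 the median was -0.20 against 0.11 over all genes, with 31 of the 40 below 0, and without combination library 4-2 it was -0.28 against 0.02, again with 31 below 0. In 22 genes the treated libraries lay below both controls (11.4% of all genes), and 5 genes, CCNB1, CENPF, KIF2C, MAD2L1 and MKI67, were lower at an unadjusted p under 0.05 (1.16% of all genes). With edgeR none of the 40 was called or passed the adjusted p (0.00947% of all genes for each). DESeq2 gave 0 called, 0 at an adjusted p and 6 at an unadjusted p under 0.05 (0.0237%, 0.0568% and 1.55% of all genes). The lowest adjusted p was that of MAD2L1, the checkpoint protein Mad2, at 0.459 with a log2FC of -1.18 ± 0.28. The sums were 2819 and 2983 CPM after DMSO and 2556 and 2307 CPM after the combination, and the median gene was at 82.7% and 79.4% of its DMSO mean. Without DMSO library 4-2 the adjusted p of MAD2L1 was 0.120, and it was 0.00365, past the threshold, when the filter on low counts was applied anew to the remaining libraries. The number at an unadjusted p under 0.05 was 2 without combination library 4-2 and 5 without each of the others (0.422% of all genes, and 0.900% to 2.14%).

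**Figure D2:**
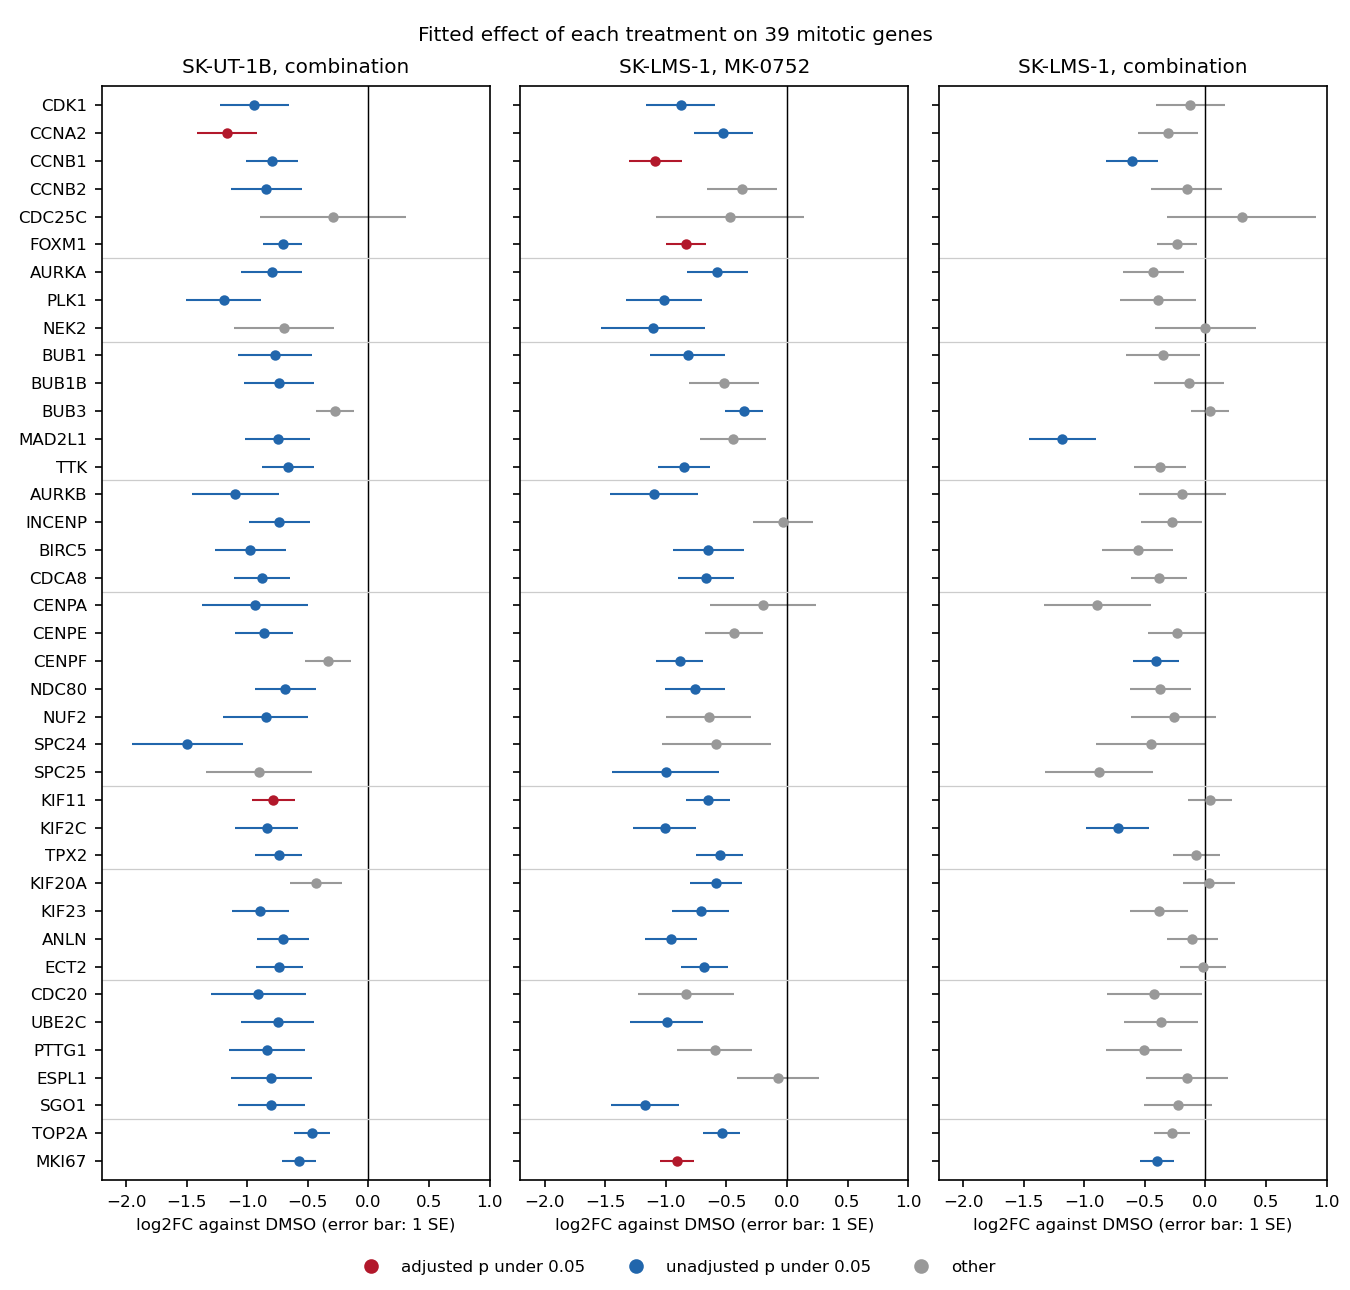
Log2FC against DMSO (x axis, error bars 1 SE) for each of 39 genes without PRC1 (y axis, in order of role, grey lines between roles), with 1 panel per treatment, red for an adjusted p under 0.05, blue for an unadjusted p under 0.05 and grey for the rest. All points lie left of 0 in the first 2 panels, and the median of the combination in SK-LMS-1 is nearest to 0, although MAD2L1 lies farther from 0 there than in the other panels.

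Across the treatments, 35 of the 40 genes were below 0 in all 3 comparisons (9.40% of all genes). CCNB1, KIF2C and MKI67 were lower at an unadjusted p under 0.05 in all 3 (0.0758% of all genes), and 22 genes were so after both the combination in SK-UT-1B and MK-0752 in SK-LMS-1 (0.663%). The latter comparisons share no library, but their p-values rest on the same estimate of the spread of each gene, so they are not independent. A further 11 passed that unadjusted threshold in SK-UT-1B and not after MK-0752 (4.41% of all genes), and 5 (NEK2, BUB3, CENPF, SPC25 and KIF20A) passed it after MK-0752 and not in SK-UT-1B (3.27%). CDC25C and PRC1 passed it in none. Across 39 genes, the log2FC of the combination in SK-UT-1B had r = 0.11 and rho = 0.07 with that of MK-0752, and r = 0.35 and rho = 0.42 with that of the combination in SK-LMS-1. For the treatments of SK-LMS-1, compared with each other, these were 0.08 and 0.16, and all are given as a description, since genes are not independent replicates.

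**Figure D3:**
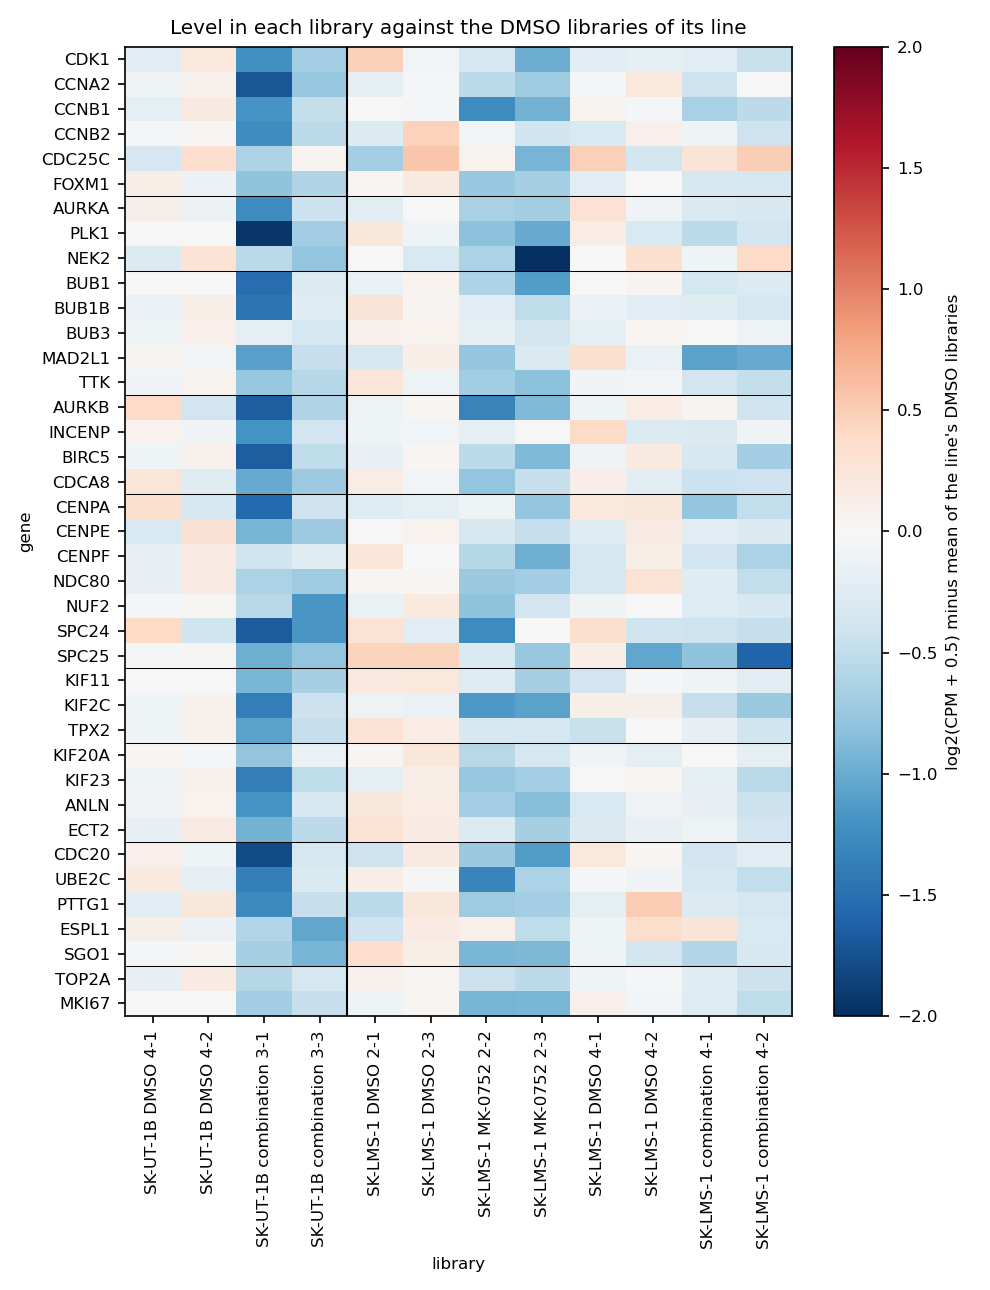
Heat map of log2(CPM + 0.5) of 39 genes without PRC1 (y axis, by role) in each of the 12 libraries (x axis) minus the mean of the DMSO libraries of the same line, blue for lower and red for higher, with SK-UT-1B on the left of the black line. Library 3-1 of SK-UT-1B is the bluest column in that line, and the MK-0752 columns are bluer than those of the combination in SK-LMS-1.

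Levels of single genes follow by role, with library 4-1 before 4-2 and 3-1 before 3-3 in SK-UT-1B, and in SK-LMS-1 with 2-1 before 2-3 in set 2, 2-2 before 2-3 after MK-0752 and 4-1 before 4-2 in set 4 and after the combination. CDK1 and its cyclins start mitosis, CDC25C activates CDK1, and FOXM1 drives the transcription of many of these genes. For these 6 genes the median log2FC was -0.82 after the combination in SK-UT-1B, -0.68 after MK-0752 in SK-LMS-1 and -0.20 after the combination in SK-LMS-1, and 5, 4 and 1 of them were lower at an unadjusted p under 0.05 (5.08%, 3.94% and 1.16% of all genes, the shares to set beside the counts of every other role as well). CDK1, the cyclin-dependent kinase that drives cells into mitosis, stood at 60.8 and 81.6 CPM in SK-UT-1B after DMSO and at 30.3 and 43.9 CPM after the combination. In SK-LMS-1, CDK1 was at 46.7 and 32.1 CPM after DMSO in set 2, 26.4 and 16.5 CPM after MK-0752, 29.0 and 29.2 CPM after DMSO in set 4 and 28.8 and 24.5 CPM after the combination. CDK1 was lower in both treated libraries than in each control library after the combination in SK-UT-1B, MK-0752 in SK-LMS-1 and the combination in SK-LMS-1, with log2FC of -0.94 ± 0.28, -0.88 ± 0.28 and -0.12 ± 0.28, in that order. CCNA2, cyclin A2, a CDK partner from S phase to early mitosis, had 211 and 237 CPM in SK-UT-1B after DMSO and 67.6 and 131 CPM after the combination. SK-LMS-1 had CCNA2 at 53.4 and 59.4 CPM after DMSO in set 2, 41.7 and 36.7 CPM after MK-0752, 59.6 and 70.2 CPM after DMSO in set 4 and 45.1 and 59.7 CPM after the combination. Treated and control CCNA2 did not overlap after the combination in SK-UT-1B and MK-0752 in SK-LMS-1, where the log2FC were -1.17 ± 0.25 and -0.52 ± 0.25, and the groups overlapped after the combination in SK-LMS-1, at -0.31 ± 0.25. CCNB1, cyclin B1, the main mitotic partner of CDK1, was at 152 and 196 CPM in SK-UT-1B after DMSO and at 75.9 and 124 CPM after the combination. The CCNB1 values of SK-LMS-1 were 97.5 and 94.9 CPM after DMSO in set 2, 40.4 and 50.2 CPM after MK-0752, 101 and 94.0 CPM after DMSO in set 4 and 61.4 and 67.2 CPM after the combination. The CCNB1 values of the treated libraries lay below those of the controls after the combination in SK-UT-1B, MK-0752 in SK-LMS-1 and the combination in SK-LMS-1 (log2FC -0.80 ± 0.21, -1.09 ± 0.22 and -0.60 ± 0.21), in that order. CCNB2, cyclin B2, a second B-type partner of CDK1, stood at 75.3 and 78.5 CPM in SK-UT-1B after DMSO and at 32.3 and 53.5 CPM after the combination. In SK-LMS-1, CCNB2 was at 24.8 and 41.5 CPM after DMSO in set 2, 28.7 and 22.4 CPM after MK-0752, 24.2 and 32.0 CPM after DMSO in set 4 and 28.1 and 22.4 CPM after the combination. Less CCNB2 was found in both treated libraries than in either control after the combination in SK-UT-1B, at a log2FC of -0.84 ± 0.29, and the groups overlapped after MK-0752 in SK-LMS-1 and the combination in SK-LMS-1, at -0.37 ± 0.29 and -0.16 ± 0.29. CDC25C, the phosphatase that removes inhibitory phosphates from CDK1, ranged from 9.70 to 19.2 CPM over the SK-UT-1B libraries and from 1.79 to 5.94 CPM over those of SK-LMS-1, and passed the unadjusted threshold after none of the treatments. FOXM1, a forkhead transcription factor that activates many genes of G2 and mitosis, had 352 and 301 CPM in SK-UT-1B after DMSO and 185 and 214 CPM after the combination. SK-LMS-1 had FOXM1 at 81.2 and 89.9 CPM after DMSO in set 2, 46.5 and 49.6 CPM after MK-0752, 67.6 and 79.9 CPM after DMSO in set 4 and 63.3 and 62.1 CPM after the combination. FOXM1 was lower in both treated libraries than in each control library after the combination in SK-UT-1B, MK-0752 in SK-LMS-1 and the combination in SK-LMS-1, with log2FC of -0.71 ± 0.16, -0.83 ± 0.17 and -0.23 ± 0.16, in that order.

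Aurora A, Polo-like kinase 1 and NEK2 act at centrosomes and carry the mitotic signal forward. Over the 3 kinase genes the median log2FC was -0.80 after the combination in SK-UT-1B, -1.01 after MK-0752 in SK-LMS-1 and -0.39 after the combination in SK-LMS-1, and 2, 3 and 0 of them were lower at an unadjusted p under 0.05. AURKA, Aurora A, the kinase of centrosome maturation and spindle assembly, was at 74.9 and 63.3 CPM in SK-UT-1B after DMSO and at 28.4 and 51.04 CPM after the combination. The AURKA values of SK-LMS-1 were 48.0 and 55.7 CPM after DMSO in set 2, 35.4 and 34.3 CPM after MK-0752, 68.3 and 52.9 CPM after DMSO in set 4 and 45.3 and 44.4 CPM after the combination. Treated and control AURKA did not overlap after the combination in SK-UT-1B, MK-0752 in SK-LMS-1 and the combination in SK-LMS-1, where the log2FC were -0.80 ± 0.25, -0.57 ± 0.25 and -0.43 ± 0.25, in that order. PLK1, Polo-like kinase 1, which acts from mitotic entry to cytokinesis, stood at 213 and 214 CPM in SK-UT-1B after DMSO and at 55.3 and 131 CPM after the combination. In SK-LMS-1, PLK1 was at 49.97 and 40.1 CPM after DMSO in set 2, 23.9 and 20.8 CPM after MK-0752, 47.5 and 34.5 CPM after DMSO in set 4 and 29.5 and 32.9 CPM after the combination. The PLK1 values of the treated libraries lay below those of the controls after the combination in SK-UT-1B, MK-0752 in SK-LMS-1 and the combination in SK-LMS-1 (log2FC -1.20 ± 0.31, -1.01 ± 0.31 and -0.39 ± 0.31), in that order. NEK2, a centrosomal kinase that helps to separate the centrosomes, had 32.9 and 48.5 CPM in SK-UT-1B after DMSO and 27.4 and 22.8 CPM after the combination. SK-LMS-1 had NEK2 at 10.5 and 8.55 CPM after DMSO in set 2, 6.68 and 2.20 CPM after MK-0752, 10.5 and 13.4 CPM after DMSO in set 4 and 9.97 and 14.0 CPM after the combination. Less NEK2 was found in both treated libraries than in either control after the combination in SK-UT-1B and MK-0752 in SK-LMS-1, at log2FC of -0.70 ± 0.41 and -1.11 ± 0.43, and the groups overlapped after the combination in SK-LMS-1, at -0.0013 ± 0.42.

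The spindle checkpoint proteins sense kinetochores without microtubules and keep CDC20 from acting. For these 5 genes the median log2FC was -0.74 after the combination in SK-UT-1B, -0.52 after MK-0752 in SK-LMS-1 and -0.35 after the combination in SK-LMS-1, and 4, 3 and 1 of them were lower at an unadjusted p under 0.05. BUB1, a checkpoint kinase that marks kinetochores, was at 142 and 143 CPM in SK-UT-1B after DMSO and at 49.2 and 118 CPM after the combination. The BUB1 values of SK-LMS-1 were 63.4 and 72.6 CPM after DMSO in set 2, 45.2 and 31.9 CPM after MK-0752, 69.7 and 72.3 CPM after DMSO in set 4 and 54.1 and 57.1 CPM after the combination. BUB1 was lower in both treated libraries than in each control library after the combination in SK-UT-1B, MK-0752 in SK-LMS-1 and the combination in SK-LMS-1, with log2FC of -0.77 ± 0.31, -0.82 ± 0.31 and -0.35 ± 0.31, in that order. BUB1B, BubR1, a subunit of the complex that inhibits the anaphase-promoting complex, stood at 118 and 139.6 CPM in SK-UT-1B after DMSO and at 46.4 and 108 CPM after the combination. In SK-LMS-1, BUB1B was at 47.6 and 41.3 CPM after DMSO in set 2, 34.2 and 27.8 CPM after MK-0752, 36.5 and 34.2 CPM after DMSO in set 4 and 33.4 and 30.9 CPM after the combination. Treated and control BUB1B did not overlap after the combination in SK-UT-1B, MK-0752 in SK-LMS-1 and the combination in SK-LMS-1, where the log2FC were -0.74 ± 0.29, -0.52 ± 0.29 and -0.14 ± 0.29, in that order. BUB3, the partner that brings BUB1 and BubR1 to kinetochores, had 131 and 152 CPM in SK-UT-1B after DMSO and 123 and 111 CPM after the combination. SK-LMS-1 had BUB3 at 225 and 222 CPM after DMSO in set 2, 186 and 163 CPM after MK-0752, 184 and 216 CPM after DMSO in set 4 and 213 and 198 CPM after the combination. The BUB3 values of the treated libraries lay below those of the controls after the combination in SK-UT-1B and MK-0752 in SK-LMS-1 (log2FC -0.27 ± 0.16 and -0.36 ± 0.16), and the groups overlapped after the combination in SK-LMS-1, at 0.04 ± 0.16. MAD2L1, Mad2, the checkpoint protein that binds CDC20, was at 108 and 100.4 CPM in SK-UT-1B after DMSO and at 48.9 and 75.2 CPM after the combination. The MAD2L1 values of SK-LMS-1 were 18.9 and 26.1 CPM after DMSO in set 2, 13.7 and 19.3 CPM after MK-0752, 29.6 and 21.5 CPM after DMSO in set 4 and 11.1 and 11.5 CPM after the combination. Less MAD2L1 was found in both treated libraries than in either control after the combination in SK-UT-1B and the combination in SK-LMS-1, at log2FC of -0.75 ± 0.27 and -1.18 ± 0.28, and the groups overlapped after MK-0752 in SK-LMS-1, at -0.45 ± 0.27. TTK, Mps1, the kinase at the top of the spindle checkpoint, stood at 68.5 and 76.4 CPM in SK-UT-1B after DMSO and at 42.6 and 48.7 CPM after the combination. In SK-LMS-1, TTK was at 57.2 and 45.0 CPM after DMSO in set 2, 29.6 and 27.2 CPM after MK-0752, 46.2 and 46.5 CPM after DMSO in set 4 and 37.1 and 34.5 CPM after the combination. TTK was lower in both treated libraries than in each control library after the combination in SK-UT-1B, MK-0752 in SK-LMS-1 and the combination in SK-LMS-1, with log2FC of -0.67 ± 0.21, -0.85 ± 0.22 and -0.37 ± 0.22, in that order.

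**Figure D4:**
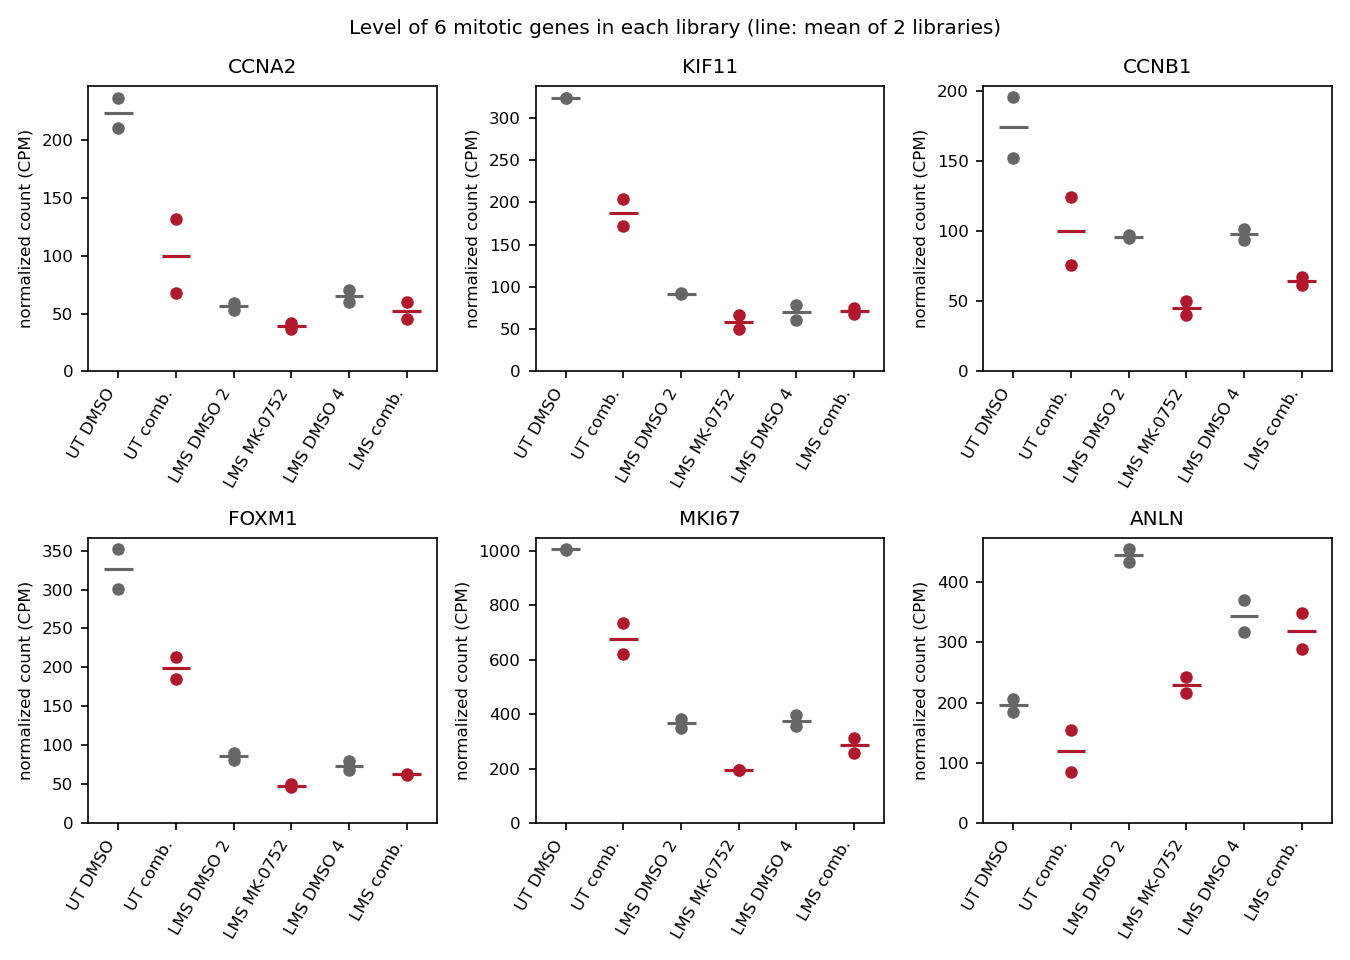
CPM (y axis, from 0) of CCNA2, KIF11, CCNB1, FOXM1, MKI67 and ANLN in each library, grey for DMSO and red for treated, with a line at the mean of the 2 libraries of each group (x axis, UT for SK-UT-1B, LMS for SK-LMS-1). CCNA2 and KIF11 are below both DMSO libraries in both SK-UT-1B combination libraries, and MKI67, FOXM1 and CCNB1 are below DMSO set 2 in both MK-0752 libraries.

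The chromosomal passenger complex, with Aurora B as its kinase, corrects wrong attachments and later acts at the midzone. Over the 4 passenger complex genes the median log2FC was -0.93 after the combination in SK-UT-1B, -0.66 after MK-0752 in SK-LMS-1 and -0.33 after the combination in SK-LMS-1, and 4, 3 and 0 of them were lower at an unadjusted p under 0.05. AURKB, Aurora B, the kinase of the passenger complex, had 53.5 and 31.3 CPM in SK-UT-1B after DMSO and 12.7 and 26.9 CPM after the combination. SK-LMS-1 had AURKB at 23.4 and 26.0 CPM after DMSO in set 2, 9.65 and 13.4 CPM after MK-0752, 23.7 and 28.0 CPM after DMSO in set 4 and 26.3 and 19.1 CPM after the combination. Treated and control AURKB did not overlap after the combination in SK-UT-1B and MK-0752 in SK-LMS-1, where the log2FC were -1.10 ± 0.36 and -1.10 ± 0.36, and the groups overlapped after the combination in SK-LMS-1, at -0.19 ± 0.36. INCENP, the scaffold of the passenger complex, was at 124 and 111 CPM in SK-UT-1B after DMSO and at 50.99 and 90.1 CPM after the combination. The INCENP values of SK-LMS-1 were 53.9 and 55.1 CPM after DMSO in set 2, 49.9 and 56.7 CPM after MK-0752, 75.5 and 47.3 CPM after DMSO in set 4 and 46.7 and 54.6 CPM after the combination. The INCENP values of the treated libraries lay below those of the controls after the combination in SK-UT-1B (log2FC -0.74 ± 0.25), and the groups overlapped after MK-0752 in SK-LMS-1 and the combination in SK-LMS-1, at -0.03 ± 0.25 and -0.28 ± 0.25. BIRC5, survivin, the subunit that places the complex at centromeres, stood at 128 and 143 CPM in SK-UT-1B after DMSO and at 42.8 and 95.6 CPM after the combination. In SK-LMS-1, BIRC5 was at 44.3 and 50.4 CPM after DMSO in set 2, 34.1 and 26.3 CPM after MK-0752, 46.7 and 56.1 CPM after DMSO in set 4 and 39.4 and 30.3 CPM after the combination. Less BIRC5 was found in both treated libraries than in either control after the combination in SK-UT-1B, MK-0752 in SK-LMS-1 and the combination in SK-LMS-1, at log2FC of -0.97 ± 0.29, -0.65 ± 0.29 and -0.56 ± 0.29, in that order. CDCA8, borealin, a further targeting subunit of the complex, had 119 and 84.9 CPM in SK-UT-1B after DMSO and 49.9 and 60.7 CPM after the combination. SK-LMS-1 had CDCA8 at 49.9 and 43.3 CPM after DMSO in set 2, 25.9 and 32.7 CPM after MK-0752, 49.1 and 38.6 CPM after DMSO in set 4 and 33.3 and 33.8 CPM after the combination. CDCA8 was lower in both treated libraries than in each control library after the combination in SK-UT-1B, MK-0752 in SK-LMS-1 and the combination in SK-LMS-1, with log2FC of -0.88 ± 0.23, -0.67 ± 0.23 and -0.39 ± 0.23, in that order.

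Centromere and kinetochore genes encode the chromosome's attachment to the spindle. Over the 7 kinetochore genes the median log2FC was -0.86 after the combination in SK-UT-1B, -0.65 after MK-0752 in SK-LMS-1 and -0.41 after the combination in SK-LMS-1, and 5, 3 and 1 of them were lower at an unadjusted p under 0.05. CENPA, the histone H3 variant of centromeres, was at 34.6 and 22.0 CPM in SK-UT-1B after DMSO and at 9.10 and 20.5 CPM after the combination. The CENPA values of SK-LMS-1 were 8.34 and 8.84 CPM after DMSO in set 2, 9.31 and 5.68 CPM after MK-0752, 11.7 and 11.8 CPM after DMSO in set 4 and 5.68 and 6.98 CPM after the combination. Treated and control CENPA did not overlap after the combination in SK-UT-1B and the combination in SK-LMS-1, where the log2FC were -0.93 ± 0.44 and -0.89 ± 0.44, and the groups overlapped after MK-0752 in SK-LMS-1, at -0.20 ± 0.44. CENPE, a kinetochore motor that moves chromosomes to the spindle equator, stood at 81.0 and 123 CPM in SK-UT-1B after DMSO and at 52.0 and 60.3 CPM after the combination. In SK-LMS-1, CENPE was at 32.1 and 33.5 CPM after DMSO in set 2, 25.3 and 23.0 CPM after MK-0752, 26.7 and 35.6 CPM after DMSO in set 4 and 26.9 and 26.1 CPM after the combination. The CENPE values of the treated libraries lay below those of the controls after the combination in SK-UT-1B and MK-0752 in SK-LMS-1 (log2FC -0.86 ± 0.24 and -0.44 ± 0.24), and the groups overlapped after the combination in SK-LMS-1, at -0.23 ± 0.24. CENPF, a large outer kinetochore protein, had 327 and 407 CPM in SK-UT-1B after DMSO and 276 and 308 CPM after the combination. SK-LMS-1 had CENPF at 130.4 and 110.3 CPM after DMSO in set 2, 74.2 and 56.2 CPM after MK-0752, 87.2 and 119.5 CPM after DMSO in set 4 and 84.6 and 71.4 CPM after the combination. Less CENPF was found in both treated libraries than in either control after the combination in SK-UT-1B, MK-0752 in SK-LMS-1 and the combination in SK-LMS-1, at log2FC of -0.33 ± 0.19, -0.88 ± 0.19 and -0.41 ± 0.19, in that order. NDC80, the microtubule-binding subunit of the NDC80 complex, was at 50.7 and 63.5 CPM in SK-UT-1B after DMSO and at 36.5 and 34.5 CPM after the combination. The NDC80 values of SK-LMS-1 were 40.1 and 40.4 CPM after DMSO in set 2, 23.4 and 24.2 CPM after MK-0752, 31.0 and 48.2 CPM after DMSO in set 4 and 33.2 and 28.0 CPM after the combination. NDC80 was lower in both treated libraries than in each control library after the combination in SK-UT-1B and MK-0752 in SK-LMS-1, with log2FC of -0.69 ± 0.25 and -0.76 ± 0.25, and the groups overlapped after the combination in SK-LMS-1, at -0.37 ± 0.25. NUF2, the partner of NDC80 at the microtubule end of that complex, stood at 25.2 and 25.9 CPM in SK-UT-1B after DMSO and at 17.2 and 11.1 CPM after the combination. In SK-LMS-1, NUF2 was at 13.6 and 17.1 CPM after DMSO in set 2, 8.27 and 11.3 CPM after MK-0752, 14.1 and 14.9 CPM after DMSO in set 4 and 12.4 and 11.8 CPM after the combination. Treated and control NUF2 did not overlap after the combination in SK-UT-1B, MK-0752 in SK-LMS-1 and the combination in SK-LMS-1, where the log2FC were -0.85 ± 0.35, -0.65 ± 0.35 and -0.26 ± 0.35, in that order. SPC24, a subunit at the chromosome end of the NDC80 complex, had 36.0 and 20.4 CPM in SK-UT-1B after DMSO and 8.22 and 11.7 CPM after the combination. SK-LMS-1 had SPC24 at 17.0 and 11.9 CPM after DMSO in set 2, 5.47 and 13.8 CPM after MK-0752, 17.3 and 10.3 CPM after DMSO in set 4 and 10.3 and 9.93 CPM after the combination. The SPC24 values of the treated libraries lay below those of the controls after the combination in SK-UT-1B and the combination in SK-LMS-1 (log2FC -1.50 ± 0.46 and -0.45 ± 0.45), and the groups overlapped after MK-0752 in SK-LMS-1, at -0.58 ± 0.45. SPC25, the partner of SPC24, was at 28.3 and 29.5 CPM in SK-UT-1B after DMSO and at 14.4 and 16.4 CPM after the combination. The SPC25 values of SK-LMS-1 were 14.2 and 14.3 CPM after DMSO in set 2, 8.36 and 5.90 CPM after MK-0752, 11.4 and 4.79 CPM after DMSO in set 4 and 5.68 and 3.08 CPM after the combination. Less SPC25 was found in both treated libraries than in either control after the combination in SK-UT-1B and MK-0752 in SK-LMS-1, at log2FC of -0.91 ± 0.44 and -1.002 ± 0.44, and the groups overlapped after the combination in SK-LMS-1, at -0.88 ± 0.45.

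KIF11, KIF2C and TPX2 build and shape the spindle. For these 3 genes the median log2FC was -0.78 after the combination in SK-UT-1B, -0.65 after MK-0752 in SK-LMS-1 and -0.08 after the combination in SK-LMS-1, and 3, 3 and 1 of them were lower at an unadjusted p under 0.05. KIF11, Eg5, the kinesin that pushes the spindle poles apart, stood at 324 and 324 CPM in SK-UT-1B after DMSO and at 172 and 204 CPM after the combination. In SK-LMS-1, KIF11 was at 91.2 and 92.5 CPM after DMSO in set 2, 66.7 and 50.2 CPM after MK-0752, 61.4 and 78.5 CPM after DMSO in set 4 and 75.3 and 68.4 CPM after the combination. KIF11 was lower in both treated libraries than in each control library after the combination in SK-UT-1B and MK-0752 in SK-LMS-1, with log2FC of -0.78 ± 0.18 and -0.65 ± 0.18, and the groups overlapped after the combination in SK-LMS-1, at 0.04 ± 0.18. KIF2C, MCAK, a kinesin that takes microtubules apart, had 85.3 and 96.3 CPM in SK-UT-1B after DMSO and 34.4 and 67.2 CPM after the combination. SK-LMS-1 had KIF2C at 42.0 and 41.3 CPM after DMSO in set 2, 20.0 and 21.3 CPM after MK-0752, 49.3 and 48.9 CPM after DMSO in set 4 and 32.7 and 26.8 CPM after the combination. Treated and control KIF2C did not overlap after the combination in SK-UT-1B, MK-0752 in SK-LMS-1 and the combination in SK-LMS-1, where the log2FC were -0.84 ± 0.26, -1.01 ± 0.26 and -0.72 ± 0.26, in that order. TPX2, a spindle assembly factor that activates Aurora A, was at 353 and 397 CPM in SK-UT-1B after DMSO and at 177 and 272 CPM after the combination. The TPX2 values of SK-LMS-1 were 278 and 251 CPM after DMSO in set 2, 183 and 178 CPM after MK-0752, 167 and 229 CPM after DMSO in set 4 and 204 and 172 CPM after the combination. The TPX2 values of the treated libraries lay below those of the controls after the combination in SK-UT-1B and MK-0752 in SK-LMS-1 (log2FC -0.74 ± 0.19 and -0.55 ± 0.19), and the groups overlapped after the combination in SK-LMS-1, at -0.08 ± 0.19.

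Genes of the midzone and of cytokinesis act after the sister chromatids have parted. Over the 5 midzone and ring genes the median log2FC was -0.70 after the combination in SK-UT-1B, -0.68 after MK-0752 in SK-LMS-1 and -0.11 after the combination in SK-LMS-1, and 3, 4 and 0 of them were lower at an unadjusted p under 0.05. KIF20A, a kinesin of the midzone and of cytokinesis, stood at 102 and 96.4 CPM in SK-UT-1B after DMSO and at 56.9 and 89.8 CPM after the combination. In SK-LMS-1, KIF20A was at 58.8 and 67.9 CPM after DMSO in set 2, 39.1 and 45.3 CPM after MK-0752, 55.4 and 51.1 CPM after DMSO in set 4 and 57.8 and 50.9 CPM after the combination. Less KIF20A was found in both treated libraries than in either control after the combination in SK-UT-1B and MK-0752 in SK-LMS-1, at log2FC of -0.43 ± 0.22 and -0.58 ± 0.22, and the groups overlapped after the combination in SK-LMS-1, at 0.03 ± 0.22. KIF23, a kinesin subunit of the centralspindlin complex, had 116 and 129 CPM in SK-UT-1B after DMSO and 46.5 and 85.5 CPM after the combination. SK-LMS-1 had KIF23 at 63.3 and 79.2 CPM after DMSO in set 2, 42.2 and 44.8 CPM after MK-0752, 72.2 and 74.1 CPM after DMSO in set 4 and 62.5 and 49.5 CPM after the combination. KIF23 was lower in both treated libraries than in each control library after the combination in SK-UT-1B, MK-0752 in SK-LMS-1 and the combination in SK-LMS-1, with log2FC of -0.89 ± 0.24, -0.71 ± 0.24 and -0.38 ± 0.24, in that order. PRC1, the protein that bundles midzone microtubules, was too low to read, at 0 to 1.45 CPM. ANLN, anillin, a scaffold of the contractile ring, was at 185 and 206 CPM in SK-UT-1B after DMSO and at 84.8 and 155 CPM after the combination. The ANLN values of SK-LMS-1 were 456 and 434 CPM after DMSO in set 2, 242 and 216 CPM after MK-0752, 318 and 370.3 CPM after DMSO in set 4 and 349 and 289 CPM after the combination. Treated and control ANLN did not overlap after the combination in SK-UT-1B and MK-0752 in SK-LMS-1, where the log2FC were -0.70 ± 0.21 and -0.96 ± 0.21, and the groups overlapped after the combination in SK-LMS-1, at -0.11 ± 0.21. ECT2, the exchange factor that activates RhoA at the cleavage furrow, stood at 142 and 179.6 CPM in SK-UT-1B after DMSO and at 82.8 and 110.5 CPM after the combination. In SK-LMS-1, ECT2 was at 179 and 166 CPM after DMSO in set 2, 122 and 92.8 CPM after MK-0752, 120.3 and 133 CPM after DMSO in set 4 and 138 and 113 CPM after the combination. The ECT2 values of the treated libraries lay below those of the controls after the combination in SK-UT-1B and MK-0752 in SK-LMS-1 (log2FC -0.74 ± 0.19 and -0.68 ± 0.19), and the groups overlapped after the combination in SK-LMS-1, at -0.02 ± 0.19.

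CDC20 and UBE2C work with the anaphase-promoting complex, while securin, separase and shugoshin control cohesin. Over the 5 anaphase genes the median log2FC was -0.80 after the combination in SK-UT-1B, -0.83 after MK-0752 in SK-LMS-1 and -0.37 after the combination in SK-LMS-1, and 5, 2 and 0 of them were lower at an unadjusted p under 0.05. CDC20, an activator of the anaphase-promoting complex, had 156 and 134 CPM in SK-UT-1B after DMSO and 41.6 and 113 CPM after the combination. SK-LMS-1 had CDC20 at 61.4 and 92.4 CPM after DMSO in set 2, 48.8 and 37.5 CPM after MK-0752, 94.6 and 83.9 CPM after DMSO in set 4 and 62.5 and 70.8 CPM after the combination. Less CDC20 was found in both treated libraries than in either control after the combination in SK-UT-1B, MK-0752 in SK-LMS-1 and the combination in SK-LMS-1, at log2FC of -0.91 ± 0.39, -0.83 ± 0.39 and -0.42 ± 0.39, in that order. UBE2C, the ubiquitin-conjugating enzyme that works with the anaphase-promoting complex, was at 120.4 and 91.7 CPM in SK-UT-1B after DMSO and at 40.5 and 85.9 CPM after the combination. The UBE2C values of SK-LMS-1 were 81.7 and 73.0 CPM after DMSO in set 2, 29.6 and 48.1 CPM after MK-0752, 73.0 and 70.6 CPM after DMSO in set 4 and 58.5 and 52.9 CPM after the combination. UBE2C was lower in both treated libraries than in each control library after the combination in SK-UT-1B, MK-0752 in SK-LMS-1 and the combination in SK-LMS-1, with log2FC of -0.75 ± 0.30, -0.99 ± 0.30 and -0.37 ± 0.30, in that order. PTTG1, securin, the inhibitor of separase, stood at 47.6 and 65.2 CPM in SK-UT-1B after DMSO and at 22.7 and 40.5 CPM after the combination. In SK-LMS-1, PTTG1 was at 35.0 and 59.9 CPM after DMSO in set 2, 31.0 and 31.7 CPM after MK-0752, 44.5 and 72.4 CPM after DMSO in set 4 and 42.1 and 40.4 CPM after the combination. Treated and control PTTG1 did not overlap after the combination in SK-UT-1B, MK-0752 in SK-LMS-1 and the combination in SK-LMS-1, where the log2FC were -0.84 ± 0.31, -0.60 ± 0.31 and -0.50 ± 0.31, in that order. ESPL1, separase, the protease that opens cohesin, had 63.3 and 53.7 CPM in SK-UT-1B after DMSO and 38.7 and 28.3 CPM after the combination. SK-LMS-1 had ESPL1 at 9.69 and 14.8 CPM after DMSO in set 2, 14.2 and 9.05 CPM after MK-0752, 12.2 and 16.9 CPM after DMSO in set 4 and 15.7 and 10.5 CPM after the combination. The ESPL1 values of the treated libraries lay below those of the controls after the combination in SK-UT-1B (log2FC -0.80 ± 0.33), and the groups overlapped after MK-0752 in SK-LMS-1 and the combination in SK-LMS-1, at -0.07 ± 0.34 and -0.15 ± 0.34. SGO1, shugoshin 1, which protects cohesin at centromeres, was at 44.7 and 46.2 CPM in SK-UT-1B after DMSO and at 28.5 and 23.7 CPM after the combination. The SGO1 values of SK-LMS-1 were 28.0 and 24.1 CPM after DMSO in set 2, 11.5 and 11.7 CPM after MK-0752, 20.8 and 17.1 CPM after DMSO in set 4 and 14.6 and 17.7 CPM after the combination. Less SGO1 was found in both treated libraries than in either control after the combination in SK-UT-1B and MK-0752 in SK-LMS-1, at log2FC of -0.80 ± 0.28 and -1.17 ± 0.28, and the groups overlapped after the combination in SK-LMS-1, at -0.23 ± 0.28.

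TOP2A and MKI67 act on the chromosomes themselves and mark proliferating cells. For these 2 genes the median log2FC was -0.52 after the combination in SK-UT-1B, -0.72 after MK-0752 in SK-LMS-1 and -0.34 after the combination in SK-LMS-1, and 2, 2 and 1 of them were lower at an unadjusted p under 0.05. TOP2A, topoisomerase II alpha, which untangles sister chromatids, stood at 779 and 987 CPM in SK-UT-1B after DMSO and at 594 and 688 CPM after the combination. In SK-LMS-1, TOP2A was at 179.9 and 175 CPM after DMSO in set 2, 126 and 119 CPM after MK-0752, 160.3 and 166 CPM after DMSO in set 4 and 143 and 126 CPM after the combination. TOP2A was lower in both treated libraries than in each control library after the combination in SK-UT-1B, MK-0752 in SK-LMS-1 and the combination in SK-LMS-1, with log2FC of -0.46 ± 0.15, -0.54 ± 0.15 and -0.28 ± 0.15, in that order. MKI67, Ki-67, the surface protein of mitotic chromosomes used as a proliferation marker, had 1009 and 1005 CPM in SK-UT-1B after DMSO and 621 and 734 CPM after the combination. SK-LMS-1 had MKI67 at 350.0 and 382 CPM after DMSO in set 2, 194 and 196 CPM after MK-0752, 397 and 355 CPM after DMSO in set 4 and 311 and 259 CPM after the combination. Treated and control MKI67 did not overlap after the combination in SK-UT-1B, MK-0752 in SK-LMS-1 and the combination in SK-LMS-1, where the log2FC were -0.57 ± 0.14, -0.91 ± 0.14 and -0.40 ± 0.14, in that order.

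The lines themselves differed in these genes. After DMSO, SK-LMS-1 against SK-UT-1B had a median log2FC of -1.06 over the 40 genes against 0 over all genes, 35 genes were lower in all 4 SK-LMS-1 libraries than in both SK-UT-1B libraries (26.6% of all genes), and 30 were lower at an adjusted p under 0.05 (19.5%). Differential expression was called for 23 genes that were lower (14.1% of all genes) and for 1, ANLN, that was higher (17.0%). Apart from the uncertain PRC1, at -3.77 ± 2.32, the lowest were TOP2A at -2.37 ± 0.12, PLK1 at -2.32 ± 0.26 and ESPL1 at -2.13 ± 0.28, followed by MAD2L1 at -2.12 ± 0.22, FOXM1 at -2.04 ± 0.14 and KIF11 at -2.01 ± 0.15. ANLN (1.00 ± 0.19, adjusted p = 0.000398) and BUB3 (0.58 ± 0.14, adjusted p = 0.00207) were the 2 higher at an adjusted p under 0.05 (21.5% of all genes). ANLN lay between 0.79 and 1.08 under the alternatives and so passed a log2FC of 1 in only some of them, and BUB3 had an adjusted p of 0.0752 without SK-UT-1B DMSO library 4-1. With library totals alone the median of all genes was -0.17 and that of the 40 genes -1.26. After the combination the median was -0.71 against 0.02 over all genes, with 12 called lower (9.88% of all genes), 17 lower at an adjusted p under 0.05 (13.6%), ANLN called higher at 1.41 ± 0.22 (15.6%) and ANLN and BUB3 higher at an adjusted p under 0.05 (19.3%). This second median was -0.97 without combination library 3-1 of SK-UT-1B and -0.32 without 3-3.

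**Figure D5:**
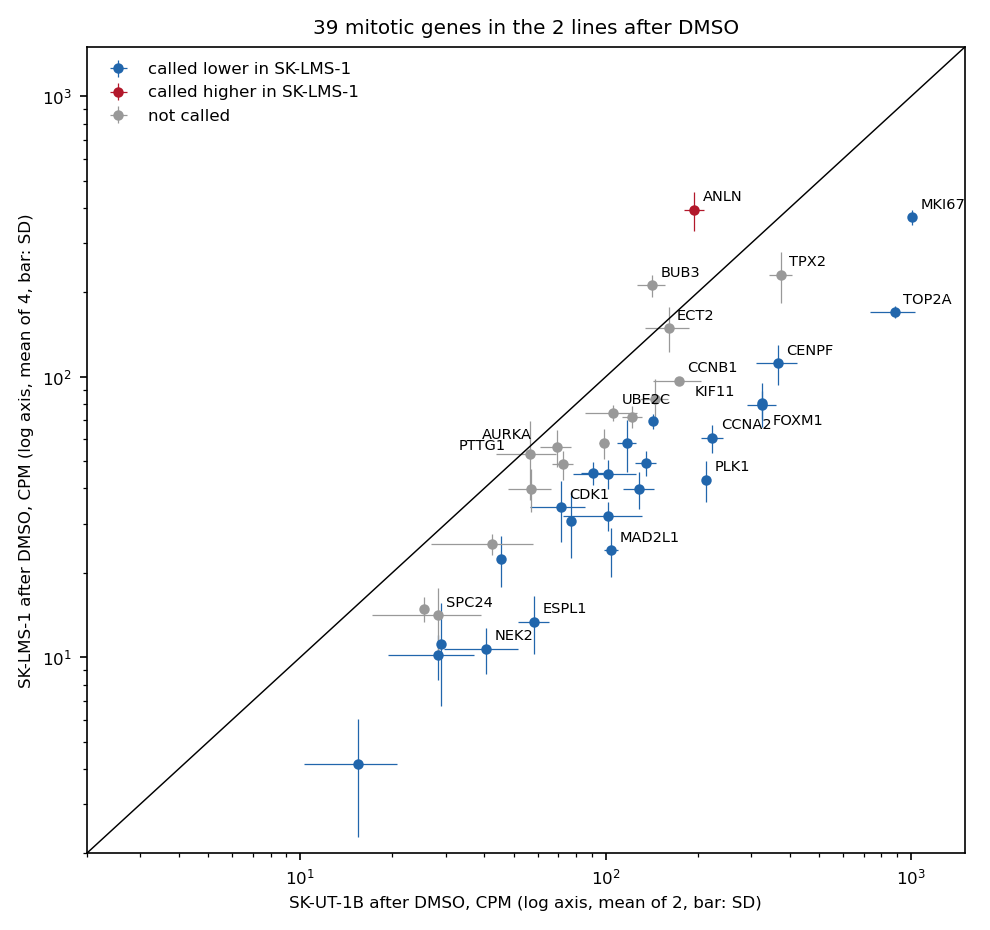
Mean CPM of 39 genes without PRC1 after DMSO in SK-LMS-1 (y axis, 4 libraries) against SK-UT-1B (x axis, 2 libraries), on log axes with SD bars and the line of equal levels, blue for genes called lower in SK-LMS-1, red for higher and grey for the rest. Most genes lie below the line, among them TOP2A and PLK1, and ANLN lies above it in red.

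The effects of the treatments were then compared with each other. The effect of the combination in SK-UT-1B minus that in SK-LMS-1 had a median of -0.48 against -0.05 over all genes, and 37 of the 40 were below 0 (52.9% of all genes). Each of the 3 drugs was given at a lower concentration in SK-UT-1B than in SK-LMS-1, since the IC30 was set for each line, so these doses were not matched either and line and dose cannot be told apart. The difference was at an unadjusted p under 0.05 for 4 genes (4.45% of all genes), with CCNA2 at -0.86 (95% interval -1.59 to -0.13), KIF11 at -0.82 (95% interval -1.35 to -0.30), ECT2 at -0.72 (95% interval -1.28 to -0.15) and TPX2 at -0.66 (95% interval -1.23 to -0.10). It passed the adjusted test for none with edgeR or with DESeq2, which also gave 4 at an unadjusted p under 0.05 (4.2% of all genes). Without 3-1 the median was -0.21 against -0.11 over all genes and only 27 of the 40 were below 0. Without 3-3 it was -0.82 against -0.11 with 39 below 0, and 7 were called and 8 passed the adjusted p (1.20% and 1.61% of all genes). In SK-LMS-1, the effect of MK-0752 minus that of the combination had a median of -0.39 against -0.06 over all genes, and 35 of the 40 were below 0 (53.9%). An unadjusted p under 0.05 was reached by 6 genes (3.62% of all genes), with ANLN at -0.85 (95% interval -1.48 to -0.21), FOXM1 at -0.60 (95% interval -1.08 to -0.11), MKI67 at -0.51 (95% interval -0.93 to -0.09), KIF11 at -0.69 (95% interval -1.22 to -0.16), ECT2 at -0.66 (95% interval -1.23 to -0.09) and SGO1 at -0.94 (95% interval -1.76 to -0.12). None passed the adjusted test with edgeR or with DESeq2, where 6 were at an unadjusted p under 0.05 (3.14% of all genes). ANLN passed it with the libraries of the comparison alone (adjusted p = 0.0292), and without DMSO library 4-2 where the filter was applied anew (adjusted p = 0.0493) but not with the same genes kept. For CCNB1 the interval spanned 0, at -0.48 (95% interval -1.12 to 0.15), which does not show that the treatments acted alike. The DMSO sets of SK-LMS-1 also differed, with a median of -0.07 for set 4 minus set 2 against 0 over all genes. ECT2, KIF11 and TPX2 were lower in set 4 at an unadjusted p under 0.05 (3.53% of all genes), at -0.44 ± 0.19, -0.39 ± 0.18 and -0.42 ± 0.19. No gene of the 40 passed the adjusted test with edgeR or DESeq2, which gave 3 at an unadjusted p under 0.05 (3.86% of all genes). ECT2, KIF11 and TPX2 are among the 4 genes named for the lines, and ECT2 and KIF11 among the 6 named for the treatments. Lower set 4 controls make both differences more negative, and their part in them was not tested. With all 4 SK-LMS-1 DMSO libraries as control, the medians were -0.46 for the lines (0.01 over all genes) and -0.35 for the treatments (0 over all genes).

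Other genes of mitosis were taken from lists written for this work, with 105 genes of the kinetochore, centrosome, kinesins, condensins, cohesin, anaphase-promoting complex and regulators of entry and exit. Their median log2FC was -0.43 after the combination in SK-UT-1B, -0.28 after MK-0752 and -0.06 after the combination in SK-LMS-1, and 35, 28 and 7 were lower at an unadjusted p under 0.05, as were 5.08%, 3.94% and 1.16% of all genes. At an adjusted p under 0.05, 2 of them fell after the combination in SK-UT-1B (0.251% of all genes). These were the chromosome kinesin KIF4A (-0.86 ± 0.19, adjusted p = 0.0402) and the kinetochore gene ZWINT (-1.26 ± 0.29, adjusted p = 0.0489), the second named after its values were seen. After MK-0752, 1 fell (0.279% of all genes), CDCA5, which encodes the cohesin protector sororin (-1.80 ± 0.25, adjusted p = 0.00169). CDCA5 had a mean of 31.4 CPM after DMSO and 9.03 CPM after MK-0752. After the combination in SK-LMS-1 none passed with edgeR, and those with the lowest p were UBE2S, an enzyme of the anaphase-promoting complex (-0.65 ± 0.19), GTSE1, a G2 regulator (-0.87 ± 0.29), and CEP152, a centriole gene (-0.97 ± 0.38), each with an adjusted p of 0.907. Subunits of the anaphase-promoting complex and their enzymes, 16 genes, had medians of 0.04 after the combination in SK-UT-1B, -0.14 after MK-0752 and 0.11 after the combination in SK-LMS-1, with 8, 11 and 5 below 0 and 2, 3 and 1 lower at an unadjusted p under 0.05. Genes of DNA replication and nucleotide supply, 30 in number, had medians of -0.64, -0.39 and -0.16, with 19, 11 and 3 lower at an unadjusted p under 0.05, against the same shares of all genes. RRM2 and RRM1, the subunits of ribonucleotide reductase, a target of gemcitabine, fell after the combination in SK-UT-1B (-0.90 ± 0.17, adjusted p = 0.0139, and -0.89 ± 0.20, adjusted p = 0.0417). RRM2 fell after MK-0752 as well (-1.17 ± 0.17, adjusted p = 0.00226), where RRM1 had -0.38 ± 0.20.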

How the data were processed

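The values deposited by the authors were raw counts per gene, not normalised, made by trimming with Trim Galore 0.3.7, alignment to hg38 with STAR 2.7.9a and removal of ribosomal reads with SortMeRNA. The versions are from the submitters' processing notes, which also name DESeq2 1.42.0. The annotation, strand setting and any removal of duplicate reads were not given in the sources used here. The 12 libraries were placed in 6 groups of 2 by treatment and line, and the DMSO libraries of SK-LMS-1 also by their first number. Counts were tested with edgeR 4.0.16 in R 4.3.3 (TMM, filterByExpr, robust quasi-likelihood fit over all groups), with Benjamini-Hochberg adjustment over 21114 genes. A call needed an adjusted p under 0.05 and a log2FC of 1 or more in size. Errors of log2FC are standard errors from the F statistic. Names, exon lengths and overlaps came from GENCODE v44, which held all 40 genes. The test was also run on simulated counts with known changes. These held no differences between the lines, so they do not show how it behaves on these libraries.

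The members and lists were chosen with earlier results of these data known. All 40 genes were named by role. Values in every library were given for genes with an unadjusted p under 0.05 after a treatment and for CDK1, CCNB1, AURKA, AURKB, PLK1, TOP2A and MKI67, with the rest as ranges. From the other lists, up to 3 genes with the lowest p in each treatment comparison were named. The alternatives were DESeq2 1.42.0, DESeq2's size factors, library totals, 2 other filters, the libraries of a comparison alone, all 4 SK-LMS-1 DMSO libraries as control, a replicate block and each library left out, the last also with the same 21114 genes kept, which was chosen after seeing the data.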

Additional observations from a re-analysis of the deposited data

How the results depend on the processing

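No median and no called gene changed sign under an alternative, while 120 single-gene values in 34 comparisons of a gene, none of them called, did. Single-gene values passed an adjusted p they had missed in 218 cases and missed one they had passed in 99. In 199 cases a log2FC that had not passed shifted by more than the SD between libraries of a group. The remaining 2558 cases had none of these changes. With 2 libraries per group, leaving one out assumes that the lone library varies like the other groups. Applying the filter anew after leaving one out also let in more genes, 24346 to 24756 against 21114, so each library was left out both with the same genes kept, an alternative chosen after seeing the data, and with the filter applied anew. For the combination in SK-UT-1B this gave 0 to 20 called, 0 to 27 at an adjusted p and 22 to 31 at an unadjusted p under 0.05 with the same genes, and 0 to 21, 2 to 28 and 21 to 32 anew. The shares of all genes were 0.332% to 1.75%, 0.374% to 3.41% and 3.66% to 7.98% with the same genes. Anew they were 0.621% to 2.01%, 0.883% to 3.77% and 3.79% to 7.48%, and each share was highest without combination library 3-3. For MK-0752 leaving one out gave 0 called and 0 at an adjusted p with the same genes, 2 to 6 and 4 to 7 anew (0.282% to 0.45% and 0.332% to 0.531% of all genes), and medians of -0.72 to -0.63 over both. For the combination in SK-LMS-1 it gave medians of -0.33 to -0.18. Between the lines it gave 0 to 1 called higher and medians of -1.24 to -1.06 after DMSO, where 3043 to 3721 of all genes were called higher. After the combination 10 to 25 were lower at an adjusted p with the same genes (8.58% to 12.6% of all genes) and 11 to 26 anew (8.6% to 12%). The difference between the combination effects had medians of -0.82 to -0.21. That between MK-0752 and the combination had medians of -0.47 to -0.35, and that between the DMSO sets had medians of -0.10 to -0.0060.

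With DESeq2's test, 2 were called and 13 passed the adjusted p after the combination in SK-UT-1B (0.663% and 1.29%), and 2 and 9 after MK-0752 (0.407% and 0.691%), where percentages are of all genes here and in the next sentences. Without a filter beyond 1 count these were 4 and 25 (0.536% and 1.26%), and 2 and 12 (0.369% and 0.602%), the combination in SK-LMS-1 had 1 called, 1 at an adjusted and 13 at an unadjusted p (0.0765%, 0.103% and 1.47%), the difference between the lines' combination effects had 8 at an unadjusted p (3.66%), and the DMSO sets had a median of -0.043. With a mean of at least 50 counts, SK-UT-1B had 0 called and 0 at an adjusted p (0.141% and 0.207%), MK-0752 had 0 called (0.214%), the difference between MK-0752 and the combination had a median of -0.33, and the DMSO sets had 0 at an unadjusted p (2.97%) and a median of -0.036. There CCNA2 and KIF11 had adjusted p-values of 0.0675 and 0.0544, and CCNB1 after MK-0752 had 0.0771. With the libraries of a comparison alone, SK-UT-1B had 0 called and 0 at an adjusted p (CCNA2 and KIF11 at 0.586) and no gene of the table was lower at an adjusted p, MK-0752 had 5 at an adjusted p (0.852%), the combination in SK-LMS-1 had 13 at an unadjusted p (2.93%), the difference between its treatments had 1 at an adjusted p, ANLN (0.197%), and a median of -0.33, and the DMSO sets had a median of -0.045. With library totals alone, SK-UT-1B had 1 at an adjusted p (0.175%), MK-0752 had a median of -0.63, the combination in SK-LMS-1 had 9 at an unadjusted p (1.55%), the lines had a median of -1.26 after DMSO and 20 called lower and 27 at an adjusted p after the combination (14.0% and 19.1%), and the medians of the last 2 comparisons were -0.32 and -0.038, with KIF11 in SK-UT-1B at an adjusted p of 0.0587. With all 4 SK-LMS-1 DMSO libraries as control, MK-0752 had 2 called and 5 at an adjusted p (0.246% and 0.388%), the combination had 10 at an unadjusted p (0.834%), and the difference between the lines' combination effects had 2 (3.79%). The call of ANLN as higher in SK-LMS-1 after DMSO was lost (0 called) under both size factor settings, both filters, DESeq2's test and the libraries of the comparison alone. The cause of these shifts was not tested.

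The replicate block for the combination in SK-LMS-1 gave 0 called, 0 at an adjusted p and 5 at an unadjusted p under 0.05, as without the block. With the block, 1.04% of all genes were lower at that unadjusted threshold. The deviations of same-numbered libraries had r = -0.00676. Noise within each library can also bring r near 0, so this value cannot decide whether the numbers pair the libraries. No paired analysis was possible for MK-0752 or for SK-UT-1B because fewer than 2 replicate numbers were shared.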

Other observations

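Genes of the MuvB complex, B-MYB, NF-Y and the E2F and RB factors, which regulate the transcription of mitotic genes, formed a list of 18. Their median log2FC was -0.29 after the combination in SK-UT-1B, -0.21 after MK-0752 and 0.11 after the combination in SK-LMS-1. At an unadjusted p under 0.05, 3 of them were lower (5.08% of all genes) and 1, the NF-Y subunit NFYA, was higher (5.41%) after the combination in SK-UT-1B, 5 were lower after MK-0752 (3.94%) and 1 was lower after the combination in SK-LMS-1 (1.16%). E2F8, an E2F family repressor, fell after MK-0752 (-1.55 ± 0.33, adjusted p = 0.0466 with edgeR), from a mean of 12.5 CPM after DMSO to 4.27 CPM. In SK-UT-1B after the combination E2F8 was at -0.97 ± 0.32, and in SK-LMS-1 after the combination at 0.26 ± 0.32, neither past the adjusted test.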
